A study of Mus musculus with 36 samples.

Results

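The first hour of C/EBPα action was described in B cells carrying the wild-type factor (C/EBPα WT), from 2 libraries collected before induction (0 hr post induction, hpi) and 2 collected at 1 hpi, 4 of the 36 libraries in the series. They were chosen by their labels as the wild-type libraries of these timepoints. The cells of both groups were B cells of C57BL/6J mouse bone marrow, isolated with magnetic beads, infected with a retrovirus encoding C/EBPα WT fused to the estrogen receptor (ER) together with human CD4, enriched for human CD4, and grown with interleukin-7 on inactivated embryonic fibroblasts as feeders. At 0 hpi they therefore already carried the fusion protein, without its ligand. For induction 17β-estradiol (E2), which lets the fusion protein enter the nucleus, was given together with IL-3, FLT3 ligand, CSF-1 and SCF, and libraries of cells given the cytokines without E2 were not analysed here, so that the action of C/EBPα and that of the cytokines and of handling cannot be told apart. The cells are thus a virus-infected population selected for the reporter, and traces of the feeders can remain in it. Poly(A) RNA was sequenced as stranded libraries and reads were counted per gene. The R35A and R35K libraries, in which arginine 35 of the same fusion protein is replaced by alanine or lysine, were used to show where the wild-type change differed, each against its own 0 hpi. The R35A libraries were also part of the fit that gave the wild-type calls.

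C/EBPα is a basic leucine zipper factor of myeloid progenitors, and forcing its expression in B lineage cells turns them into macrophage-like cells over several days, a conversion called B cell to macrophage transdifferentiation (BMT). It acts with PU.1 (gene *Spi1*), an ETS factor that both B cells and macrophages contain, while Pax5, Ebf1 and the Ikaros family maintain the B cell programme.

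Libraries held 13044456 to 16235204 counts in total. The squared difference between replicates was 1.2 times that of counting noise alone at 0 hpi and 1.1 times at 1 hpi (median over genes), so that for the typical gene the spread between the 2 libraries of a group was close to counting noise. The mean over genes was 1.96 at 0 hpi and 1.13 at 1 hpi, so that some genes varied well beyond it at 0 hpi. Levels are given as CPM, read counts scaled to library size with TMM factors, which are not divided by gene length. All 10 B cell markers were at 16.7 CPM or more in each library, whereas of 6 T cell markers *Cd3e* was at 0 in all 4 and of 7 erythroid markers *Hba-a1* was. The markers of the feeder cells were abundant, with a summed level of 6815 to 6899 CPM over 10 fibroblast markers at 0 hpi and 10706 to 10738 CPM at 1 hpi, and *Fn1* (fibronectin) alone made up 4807 and 4858 CPM at 0 hpi. In bulk RNA, fewer cells of a type and less RNA per cell cannot be told apart, so each fall given here is a fall of the share of the library.

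Within 1 h, 1814 genes rose and 1574 fell by at least 1.5-fold at an adjusted p of at most 0.05, out of 16988 genes tested (edgeR quasi-likelihood test, Benjamini-Hochberg adjustment). Called genes were 19.9% of those tested, 10.7% higher and 9.27% lower, and the median log2 fold change over all genes tested was −0.01. The rises were steeper than the falls. A change of at least 2-fold was called for 973 genes upward (5.73%) and 735 downward (4.33%), and an adjusted p of 0.05 or less alone for 4291 (25.3%) and 4421 (26.0%). A change of at least 4-fold was called for 385 genes upward and 159 downward, and one of at least 16-fold for 103 upward and 14 downward. Many of these were at the edge of detection, since 73 of the 103 had at most 3 counts in each 0 hpi library, for which a fold change is not a measured size, as had 11 of the 14 in each 1 hpi library. The genes that rose took up 7.10% and 7.15% of all counts in the 0 hpi libraries and 13.4% in both 1 hpi libraries, and the genes that fell went from 9.96% and 9.94% to 5.20% and 5.19%. The plot of level against change shows both sets across the range of expression.

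**Figure D1:**
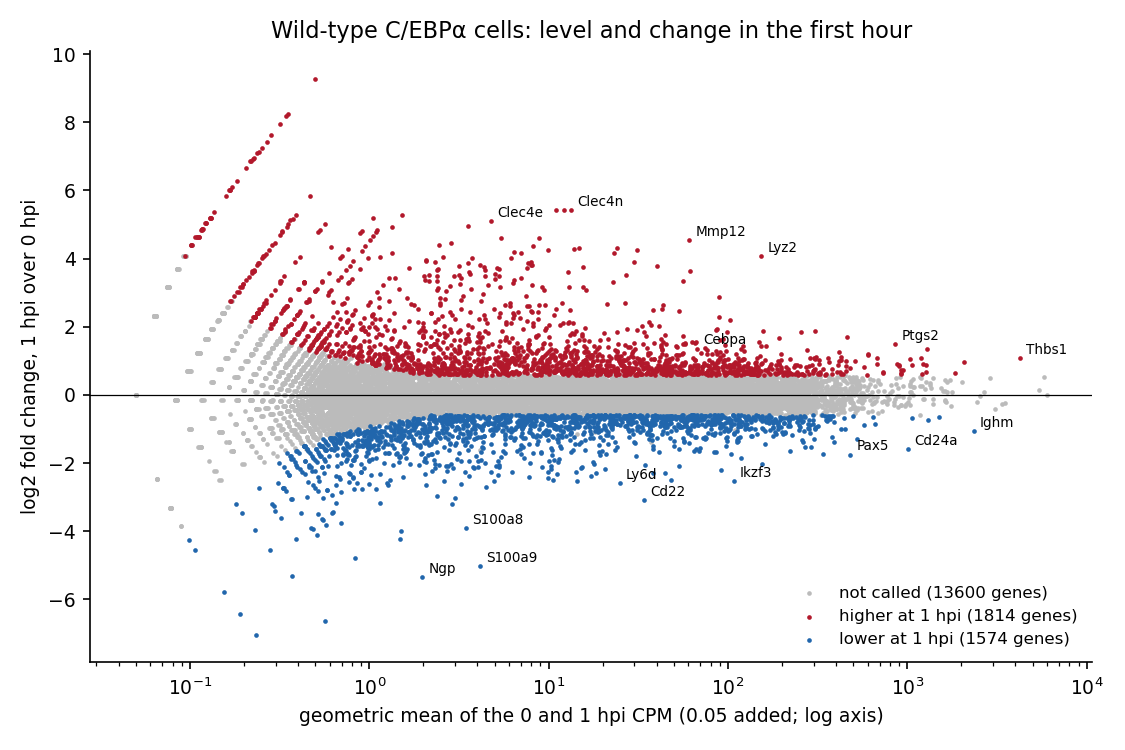
Level and change of the 16988 tested genes in wild-type cells. Each point is a gene, with the geometric mean of its 0 and 1 hpi levels (CPM with 0.05 added, log axis) across and its log2 fold change upward, red for the 1814 genes called higher, blue for the 1574 called lower and grey for the rest, and the steepest changes sit at low levels while *Thbs1* and *Ighm* are changes of abundant RNAs.

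The genes that rose most, among those reaching 10 CPM, were mostly genes of macrophages and other myeloid cells. *Mmp8*, which encodes the neutrophil collagenase, went from 1.70 and 1.96 to 79.8 and 77.6 CPM (log2 fold change 5.42 ± 0.09 (SE), adjusted p = 1.46e-43). *Clec4n* (Dectin-2), a lectin receptor for fungal mannans, went from 1.62 and 2.39 to 84.2 and 88.2 CPM (5.42 ± 0.09). For each of these genes both 1 hpi libraries lay far above both 0 hpi libraries. *Clec4e* (Mincle), a lectin receptor for mycobacterial glycolipid, rose from 0.848 and 0.725 to 25.9 and 28.6 CPM, and *Cd300lf*, an inhibitory receptor of myeloid cells, from 1.41 and 0.725 to 27.6 and 25.5 CPM. *Mmp12*, the macrophage elastase, was at 11.9 and 13.2 CPM before and 289.5 and 295.7 CPM after induction (4.54 ± 0.05). Others were *Aldh3a1* (an aldehyde dehydrogenase), *Cd33* (a sialic acid-binding receptor), *Ms4a6d*, *Clec4a2* (an inhibitory lectin receptor), *Tlr13* (a receptor for bacterial ribosomal RNA) and *Lilrb4* (an inhibitory immunoglobulin-like receptor), with log2 fold changes from 4.31 to 4.95. The 0 and 1 hpi libraries overlapped for none of these genes, which the rule for naming them required. Over all genes tested, the groups did not overlap at 73.7%.

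The genes that fell most began with 3 genes of granulocytes. *Ngp*, a granule protein of neutrophils, went from 12.0 and 11.9 CPM to 0.0682 and 0.477 CPM, which were 1 and 8 counts. *S100a9* and *S100a8*, the subunits of calprotectin, went from 23.2 and 22.8 to 0.682 and 0.716 CPM and from 12.5 and 13.7 to 0.819 and 0.894 CPM. These were not single genes: 8 of 8 tested granulocyte markers fell, and their sum over the 9 markers dropped from 61.1 to 63.9 CPM at 0 hpi to 2.11 to 2.92 CPM at 1 hpi. *Elane*, neutrophil elastase, had 18 and 11 counts before and 0 in both 1 hpi libraries, so that it was at least 5.39-fold lower against a floor of 3 counts per library, and *Mpo*, myeloperoxidase, had 61 and 44 counts before and 3 and 1 after. The next were genes of lymphocytes. *Cd22*, an inhibitory co-receptor of the B cell receptor, went from 98.4 and 99.0 to 11.1 and 12.0 CPM (log2 fold change −3.09 ± 0.08, adjusted p = 2.99e-36). *Ikzf3* (Aiolos), a zinc finger factor of the Ikaros family, went from 257.1 and 258.5 to 42.8 and 46.7 CPM (−2.52 ± 0.05). *Cxcr5* (a chemokine receptor), *Ly6d* (a surface marker of B lineage commitment), *Gimap4* (a lymphocyte GTPase), *Ms4a1* (CD20), and *Lax1* and *Sh2d2a* (signalling adaptors) had log2 fold changes between −2.69 and −2.43. The plot of CPM per library shows these genes, and replicates lie apart where counts are few, as for *Ngp* at 1 hpi.

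**Figure D2:**
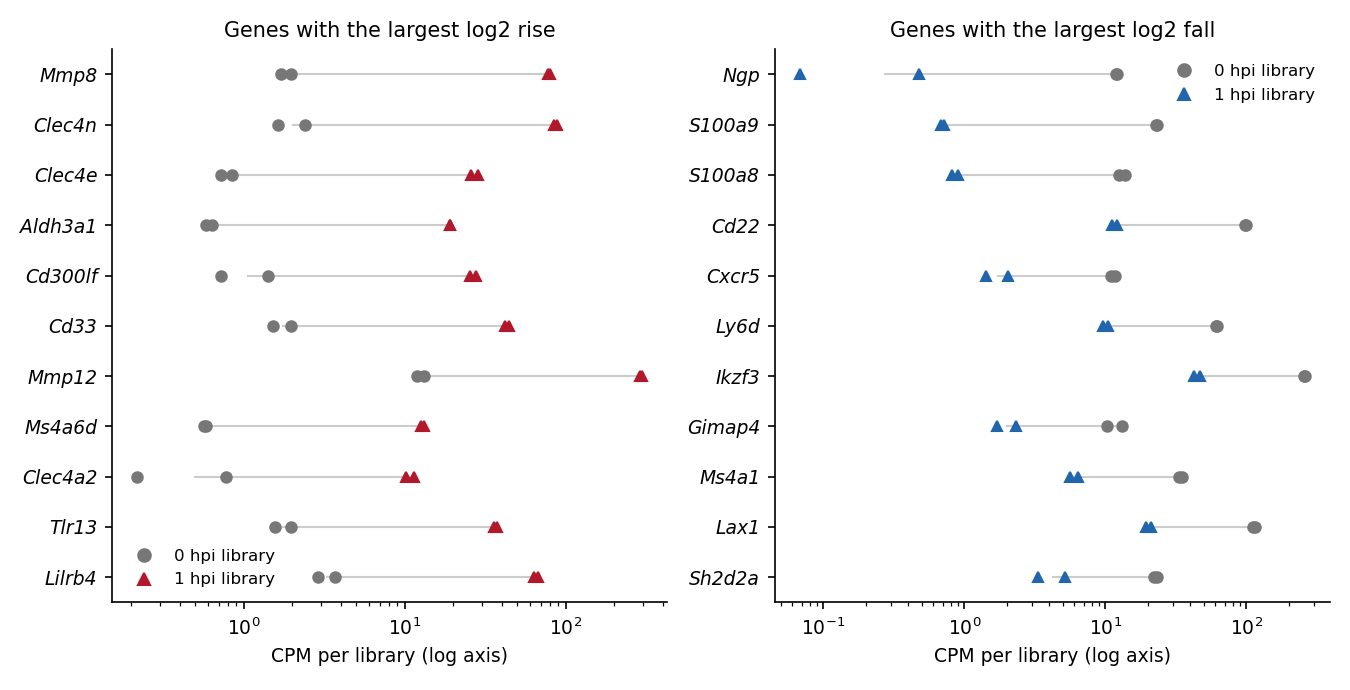
Levels in each of the 4 libraries of genes with the largest rise (left) and the largest fall (right) among called genes with at least 10 CPM in the higher group. The horizontal axis is CPM on a log scale, circles are the 2 libraries at 0 hpi, triangles the 2 at 1 hpi and the grey line joins the group means. The groups do not overlap, as the choice of genes required. Replicates lie apart where counts are few, as for *Ngp* at 1 hpi.

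The promoters of the first 3 genes of each of these sets with a RefSeq entry are printed to show what lies just upstream of the strongest changes. Each is the 250 bases before the RefSeq transcription start, 5′ to 3′ on the gene's strand, on build GRCm38.p6. Capitals mark matches on either strand to the letters searched: TTGCGCAA and TTGCNNAA (C/EBP, the first lying within the second), GAGGAAGT (PU.1), TGANTCA (AP-1), TGACGTCA (cyclic AMP response element), GGGANTTCC (NF-κB), CCCNNGGG (EBF1) and CACGTG (E box). The windows are chr9:7558179-7558428 (+) for Mmp8, chr6:123289872-123290121 (−) for Clec4e, chr11:115133993-115134242 (−) for Cd300lf, chr9:110419558-110419807 (+) for Ngp, chr3:90695722-90695971 (−) for S100a9 and chr3:90668821-90669070 (+) for S100a8.
Mmp8: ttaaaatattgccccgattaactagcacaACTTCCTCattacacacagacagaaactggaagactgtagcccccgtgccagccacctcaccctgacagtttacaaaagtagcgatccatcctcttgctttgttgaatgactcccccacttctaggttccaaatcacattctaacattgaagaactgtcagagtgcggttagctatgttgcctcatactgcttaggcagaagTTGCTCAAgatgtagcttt
Clec4e: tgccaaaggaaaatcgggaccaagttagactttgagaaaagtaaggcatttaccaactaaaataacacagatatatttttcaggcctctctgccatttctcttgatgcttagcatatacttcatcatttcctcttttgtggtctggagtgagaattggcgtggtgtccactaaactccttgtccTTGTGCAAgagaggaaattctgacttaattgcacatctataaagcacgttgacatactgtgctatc
Cd300lf: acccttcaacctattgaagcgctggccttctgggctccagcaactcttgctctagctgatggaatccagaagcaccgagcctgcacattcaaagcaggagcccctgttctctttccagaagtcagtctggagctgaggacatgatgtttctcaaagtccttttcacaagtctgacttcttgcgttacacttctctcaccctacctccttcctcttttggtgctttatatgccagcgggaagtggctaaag
Ngp: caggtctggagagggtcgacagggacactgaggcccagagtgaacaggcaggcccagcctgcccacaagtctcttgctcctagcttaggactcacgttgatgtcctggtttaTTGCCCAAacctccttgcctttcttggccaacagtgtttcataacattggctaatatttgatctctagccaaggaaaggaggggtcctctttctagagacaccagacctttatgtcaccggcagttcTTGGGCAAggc
S100a9: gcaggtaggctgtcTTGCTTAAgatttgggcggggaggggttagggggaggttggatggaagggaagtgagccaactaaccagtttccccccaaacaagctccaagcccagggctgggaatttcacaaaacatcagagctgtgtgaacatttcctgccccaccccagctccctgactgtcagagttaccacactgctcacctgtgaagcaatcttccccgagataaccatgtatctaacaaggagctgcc
S100a8: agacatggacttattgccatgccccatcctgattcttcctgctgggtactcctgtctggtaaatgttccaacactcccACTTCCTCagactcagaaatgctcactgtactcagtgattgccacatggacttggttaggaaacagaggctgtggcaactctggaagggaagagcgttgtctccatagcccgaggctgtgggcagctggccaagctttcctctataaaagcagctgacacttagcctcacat

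The letters TTGCNNAA occurred in the promoters of *Mmp8* (TTGCTCAA, from 19 to 12 bases before the start), *Clec4e* (TTGTGCAA on the printed strand, from 66 to 59 bases before) and, among the genes that fell, *Ngp* (at 138 to 131 and at 11 to 4 bases) and *S100a9* (at 236 to 229 bases). GAGGAAGT was matched, on the other strand, in *Mmp8* at 221 to 214 bases and in *S100a8* at 172 to 165 bases before the start, and none of the letters occurred in the window of *Cd300lf*. Over the 14966 such windows of tested genes, 7.76% held TTGCNNAA and 2.57% held GAGGAAGT. A match is a run of letters and not a bound site. The shares of windows with each motif were not compared between genes that rose and genes that fell, because only 70.5% of the former and 64.2% of the latter had an entry, which makes that comparison void.

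Members of the lists below were sorted into functions with textbook knowledge, and a list is described by its count of called members and its median beside the 10.7% higher, 9.27% lower and median of −0.01 over all genes tested. No member of a list is an independent replicate of another. Genes named beyond the 3 with the largest change in a direction were picked with their values known.

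Macrophage effector genes rose together. Of 39 tested, 32 were called higher and 1 lower, and the median log2 fold change was 3.42. *Lyz2* (lysozyme) was at 36.5 and 37.6 CPM in the 0 hpi libraries and at 632 and 624 CPM in the 1 hpi libraries, a log2 fold change of 4.09. *Csf1r*, the receptor for the CSF-1 of the induction medium, went from 7.77 and 7.61 to 114.6 and 116.5 CPM. *Itgam* (Mac-1), the integrin used to follow BMT by flow cytometry, went from 1.98 and 1.96 to 20.3 and 20.8 CPM. The libraries of these 3 genes were separated by group, as they were at 12516 (73.7%) of the 16988 genes tested. Receptors for immunoglobulin and their signalling chains were among the members that rose: *Fcgr3* (log2 fold change 4.27), *Fcer1g* (4.18), *Tyrobp* (4.29), and *Fcgr1*, which had 2 and 3 counts at 0 hpi and 42 and 47 at 1 hpi. *Cx3cr1*, the fractalkine receptor, had 1 and 4 counts before and 57 and 64 after. *Adgre1* (F4/80, 3.91), *Trem2* (3.87), *Msr1* (a scavenger receptor, 3.88), *Mpeg1* (perforin-2, 3.78), *Tlr2* (3.15) and *Cd14* (2.61) rose as well. The exception was *Csf3r*, the receptor for granulocyte colony-stimulating factor, which fell from 1.06 and 0.943 to 0.478 and 0.358 CPM (log2 fold change −1.26 ± 0.41, adjusted p = 0.0138), a call that was lost without replicate 1 at 0 hpi (adjusted p = 0.0813) and without replicate 2 at 1 hpi (0.123), while its level rose in R35A and R35K cells (2.86 and 3.07). *Trem1*, *Csf2ra*, *Tlr4*, *Fpr1*, *Fpr2* and *Fcgr2b* were not called. Summed over 9 macrophage markers, of which 8 were called higher, the level went from 74.2 to 75.4 CPM at 0 hpi to 890.3 to 904.1 CPM at 1 hpi. Most of that 1 hpi sum was *Lyz2*.

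The parts of the phagocyte NADPH oxidase did not move as one. *Cybb*, the catalytic membrane subunit, went from 18.4 and 16.5 to 176.3 and 179.4 CPM, and *Ncf1*, a cytosolic organizer, from 6.99 and 5.29 to 26.1 and 28.4 CPM. *Cyba*, the partner of *Cybb*, rose by 0.73 on the log2 scale, *Ncf4* had −0.18 and was not called, and *Rac2*, the GTPase of the complex, fell from 371.9 and 381.2 to 206.6 and 210.7 CPM. Of 31 lysosomal genes 10 rose and 0 fell, with a median of 0.40, including *Atp6v0d2* (a subunit of the proton pump, 2.85) and the cathepsins *Ctsh* (1.1) and *Ctsz* (1.02). Of 14 genes of prostaglandin and leukotriene metabolism 7 rose and 2 fell. *Alox5ap*, which presents arachidonate to 5-lipoxygenase, had a log2 fold change of 2.36, *Hpgds* (a prostaglandin D synthase) of 1.59, and *Ptgs2* (cyclooxygenase-2) went from 532.9 and 494.6 to 1409 and 1457 CPM, while *Ptger4*, a prostaglandin E receptor, and *Alox12* fell (−0.71 and −1.62).

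Genes for secreted signals were the second set by its median. Of 27 inflammatory cytokines and chemokines, 21 rose and 3 fell, with a median log2 fold change of 2.43. *Ccl9*, a chemokine of macrophages, went from 5.44 and 5.37 to 106.2 and 107.6 CPM, and its neighbour *Ccl6* from a mean of 5.47 to 97.5 CPM. *Tnfsf14* (LIGHT) went from 2 counts in each 0 hpi library to 60 and 74 counts, *Ccl5* from 1 count in each to 32 and 36, and *Il1b* from 3 and 4 counts to 66 and 68. The monocyte chemoattractants *Ccl2* (2.71) and *Ccl7* (2.12), the neutrophil chemoattractants *Cxcl1* (2.71) and *Cxcl2* (3.49), *Il6* (2.43) and *Tnf* (1.38) rose too. The 3 genes that fell were *Il18* (−2.39) and the lymphotoxins *Lta* (−2.33) and *Ltb* (−1.95), which B cells make for lymphoid tissue. Among 30 chemokine receptors and adhesion molecules 13 rose and 3 fell. *Ccr1*, a receptor for inflammatory chemokines, rose from 1.62 and 1.31 to 27.2 and 26.7 CPM, as did the integrin *Itgb7* (log2 fold change 3.73), and the homing receptors of lymphocytes *Cxcr5* (−2.69) and *Ccr7* (−1.23) and the adhesion molecule *Icam2* (−2.10) fell.

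Regulators changed less than effectors. Of 28 myeloid transcription factors 15 rose and 3 fell, with a median of 0.63. *Spi1* was at 33.8 CPM in both 0 hpi libraries and at 78.8 and 74.95 CPM at 1 hpi (log2 fold change 1.18 ± 0.06, adjusted p = 1.05e-23). *Cebpa* went from 44.3 and 39.2 to 108.9 and 105.4 CPM (1.36 ± 0.06), and *Esr1*, the estrogen receptor gene, from 61.6 and 62.7 to 148.2 and 153.4 CPM (1.28 ± 0.05). Reads of the fusion transgene and of the cells' own *Cebpa* and *Esr1* cannot be told apart in these counts where they share sequence. *Cebpb* (1.09), *Cebpd* (1.04), *Pparg* (a nuclear receptor, 1.53), *Tfec* (2.77), *Mitf* (0.94), *Runx2* (0.80), *Zeb2* (0.98) and the inhibitors of DNA binding *Id1* (0.98) and *Id2* (0.61) rose. *Klf4* (0.23), *Runx1* (0.27), *Maf* (0.12) and *Gfi1* (−0.02) were not called. The 3 that fell were *Gfi1b* (−2.03), a repressor of erythroid and megakaryocyte cells, *Hhex* (−0.73) and *Irf8* (−0.89), which acts in both B cells and monocytes and went from 167.3 and 171.2 to 94.9 and 88.4 CPM.

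B cell regulators fell within the hour. Of 27 B lineage transcription factors 16 were called lower and 0 higher, with a median log2 fold change of −0.80. *Pax5*, which holds cells in the B lineage, was at 874.9 and 882.6 CPM before and 262.6 and 260.0 CPM after induction (−1.75 ± 0.04). *Bach2*, a repressor that favours the B cell fate, went from 314.7 and 310.6 to 78.8 and 75.7 CPM (−2.02), and *Irf4* (−1.73), *Pou2af1* (−1.54), *Pou2f2* (−1.55), *Spib* (−1.25), *Ikzf1* (−1.11), *Tcf3* (−1.0) and *Ebf1* (−0.97) fell too. *Tcf4* (0.07), *Fli1* (−0.11), *Tcf12* (−0.22), *Sox4* (−0.20) and *Ets1* (−0.29) did not pass the threshold. The pre-B cell receptor and its signalling gave 23 lower and 0 higher of 31, with a median of −1.0. The surrogate light chain genes *Vpreb1* (−1.01), *Vpreb2* (−1.67) and *Igll1* (−0.61), the receptor chains *Cd79a* (−0.81) and *Cd79b* (−1.22) and the kinase *Blk* (−2.21) fell, whereas *Lyn* (0.12), *Ptprc* (−0.03), *Il7r* (−0.27) and *Syk* (−0.56) were not called. Of 14 genes of V(D)J recombination 10 fell, among them *Rag1*, the recombinase, from 85.4 and 83.2 to 17.5 and 16.7 CPM and *Dntt*, which adds bases at the joints, from 147.3 and 149.1 to 46.3 and 47.3 CPM. The 1 that rose was *Dclre1c* (Artemis), the hairpin-opening nuclease, from 25.8 and 24.8 to 72.7 and 75.3 CPM (1.55 ± 0.06). Of 10 genes of MHC class II and its activator 5 fell, led by *H2-DMb2* (−2.0), *Ciita* (−1.94) and *H2-Ob* (−1.50), and *H2-Aa* (0.13) and *Cd74* (−0.38) were not called.

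The B cell falls stood beside a rise of feeder RNA. Summed over 10 B cell markers, of which 9 fell, the level went from 4223 to 4233 CPM to 2025 to 2029 CPM, while 9 of 10 fibroblast markers rose and *Fn1*, at 6924 and 6886 CPM at 1 hpi, was not called. *Col3a1* went from 137.0 and 131.7 to 475.7 and 489 CPM and *Sparc* from 991.9 and 1009 to 1603 and 1596 CPM. Among the 6 genes with the largest gain in CPM were *Thbs1* (thrombospondin-1), from 2882 and 2917 to 6146 and 6161 CPM, *Tnc* (tenascin C), *Col12a1* (a collagen), *Ptgs2* and *Acta2* (smooth muscle actin), of which *Tnc*, *Col12a1* and *Acta2* are known as genes of fibroblasts. Their log2 fold changes lay between 0.64 and 1.48. The 6 with the largest loss were *Ighm* (the heavy chain of IgM), from 3304 and 3434 to 1624 and 1633 CPM, *Cd24a* (a surface glycoprotein, −1.60), *Ncl* (nucleolin, −0.66), *Tubb5* (a tubulin, −0.72), *Pax5* and *Mki67* (the Ki-67 antigen, −0.66). The part of the feeder cells in these rises and falls was not tested. Genes of the other cell types looked for, T cells, NK cells, erythroid cells, mast cells and plasmacytoid dendritic cells, summed to at most 17.8 CPM in any library. Of 3 plasma cell markers *Sdc1* and *Prdm1* rose and *Jchain* fell, and their sum went from 150.3 to 155.3 CPM to 251.9 to 258.8 CPM, of which *Sdc1* was the most.

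Genes of DNA replication and of mitosis both had medians below 0. Of 42 replication genes 34 were called lower and 0 higher, with a median of −0.82. *Cdc6*, which loads the replicative helicase, went from 92.3 and 91.6 to 29.9 and 31.6 CPM, and *Mcm10* and *Pold1* fell by 1.06 and 1.04 on the log2 scale. The helicase subunits *Mcm2* to *Mcm7* had log2 fold changes between −0.83 and −0.96. Of 39 mitosis genes 9 fell, led by *Cdc25b* (−1.25), *Aurkb* (−0.81) and *Ccna2* (−0.75), with a median of −0.48, and of 20 G1 regulators 9 fell, led by the atypical E2F repressors *E2f8* (−1.1) and *E2f7* (−0.98) and by *E2f2* (−0.96). The CDK inhibitors *Cdkn1b* (0.22) and *Cdkn2d* (0.01) were not called. Of 28 chromatin regulators 7 fell and 0 rose, among them *Uhrf1* (−1.33) and *Dnmt1* (−0.73), which copy DNA methylation, and *Ezh2* (−1.21), the Polycomb methyltransferase. *Carm1*, the arginine methyltransferase that modifies C/EBPα, was at a mean of 70.4 CPM before and 56.7 CPM after and was not called (−0.31). Replication-dependent histone genes, whose RNAs mostly lack a poly(A) tail and are poorly captured by this library type, gave 4 lower of 26.

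Growth and housekeeping sets had medians between −0.32 and 0.32. Ribosome biogenesis (21.6% lower) and glycolysis (23.5% higher) had more called members than all genes tested (9.27% lower, 10.7% higher). Of 51 genes of ribosome biogenesis and the Myc network 11 fell, led by *Dkc1* (−1.01), *Mxd3* (−0.91) and *Nop56* (−0.86), and 2 rose, *Mxi1* (0.63) and *Mycn* (0.59), with a median of −0.32. The call on *Mycn* was lost without replicate 1 at 0 hpi (adjusted p = 0.292) and without replicate 1 at 1 hpi (0.229), and *Myc* itself had 0.51 and was not called. Of 83 genes for cytosolic ribosomal proteins 9 fell and 2 rose (*Rpl39l* and *Rpl3l*), with a median of −0.30, and of 71 subunits of oxidative phosphorylation 0 were called. Mitochondrial ribosomal proteins gave 1 lower of 77 (*Mrpl12*), aminoacyl-tRNA synthetases 1 of 17 (*Vars*) and proteasome subunits 2 of 38, *Psmb8* (−0.72) and *Psmb10* (−0.61), both of the immunoproteasome. Of 27 cholesterol genes 3 fell and 1 rose. *Dhcr7* (−0.86) fell, as did *Idi1*, which is near 1 CPM and was no longer called without replicate 1 at 0 hpi (adjusted p = 0.194) or without replicate 1 at 1 hpi (0.0566). Glycolysis gave 4 higher of 17, the hexokinases *Hk3* (2.96) and *Hk2* (0.77) and the glucose transporters *Slc2a1* (0.82) and *Slc2a3* (0.66). Of 348 genes named Zfp 5 rose and 26 fell, with a median of −0.13. The plot of called shares sets all these lists side by side.

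**Figure D3:**
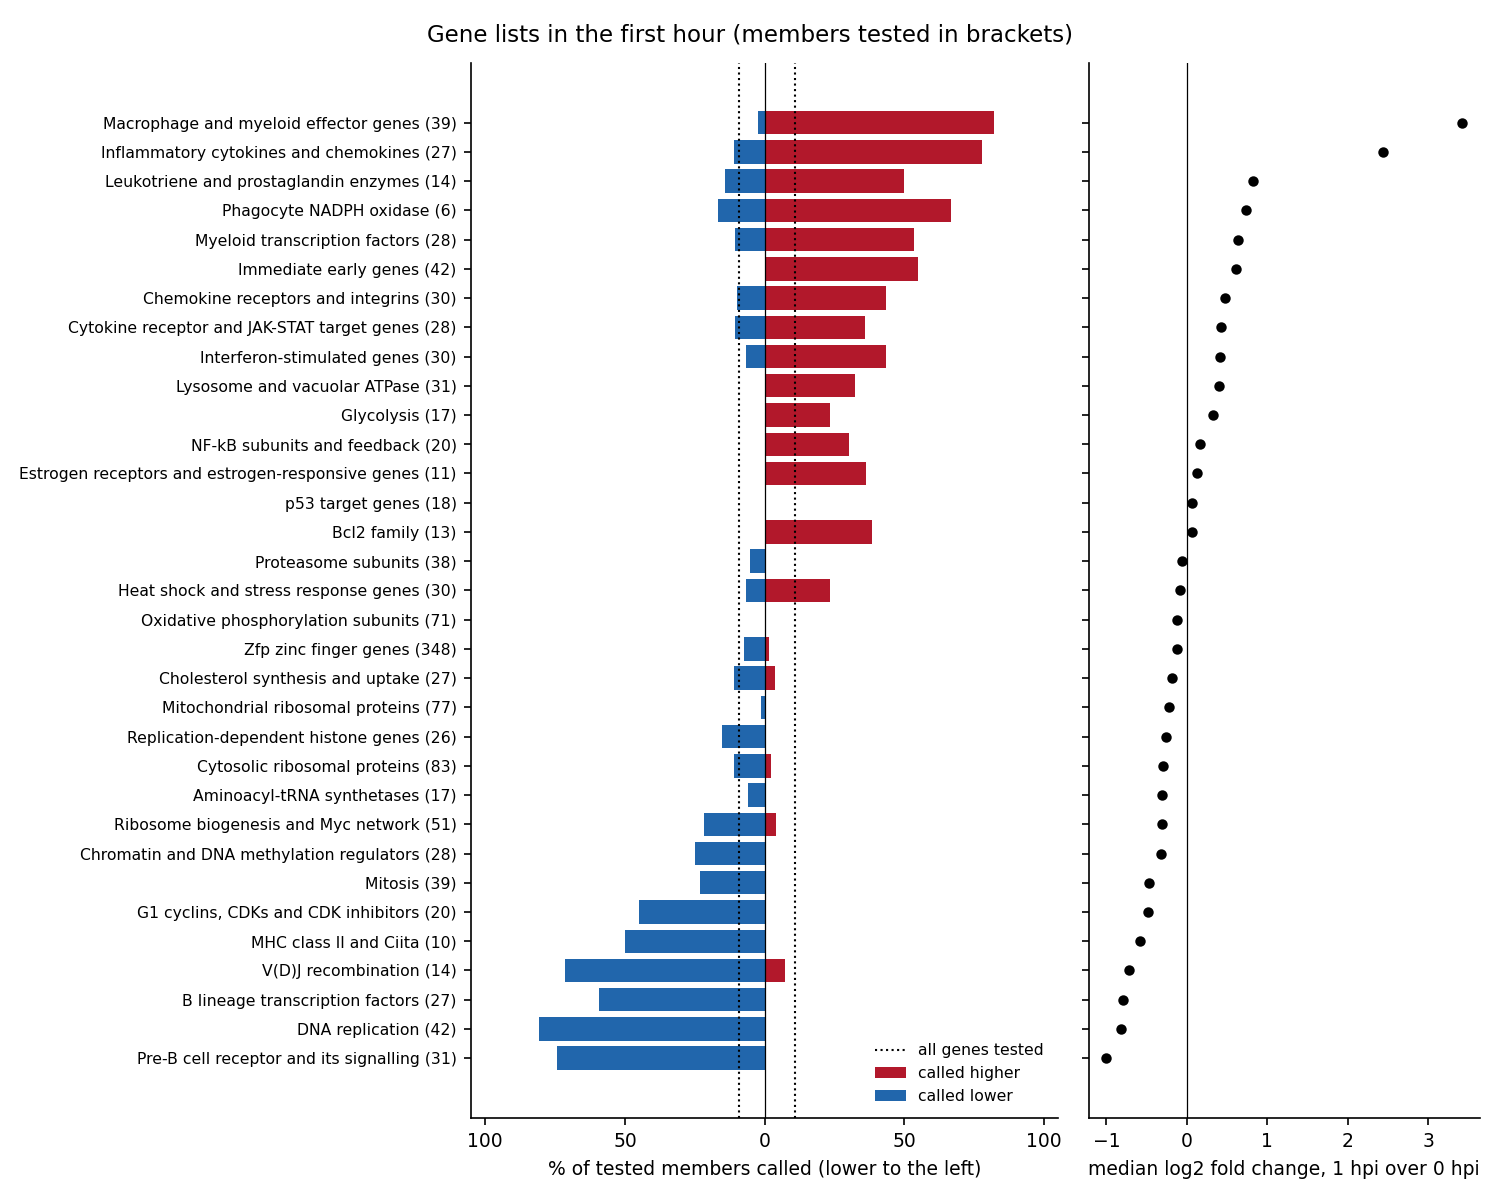
Share of the tested members of each list called higher (red, to the right) and lower (blue, to the left) at 1 hpi, in percent, with the number tested in brackets and dotted lines at the shares over all genes tested. The right panel gives the median log2 fold change of the members, from −1.0 for the pre-B cell receptor to 3.42 for macrophage effectors.

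Immediate early genes were called in 1 direction only. Of 42 genes of this class, which cells switch on within minutes of a stimulus without new protein, 23 were called higher and 0 lower, with a median of 0.60. *Ier3* went from 43.1 and 45.8 to 167.2 and 172.0 CPM, *Egr2* from 7.77 and 8.63 to 27.9 and 28.9 CPM, and the orphan receptor *Nr4a1* from 262.5 and 273.0 to 650.1 and 634.7 CPM. *Egr1* (1.09), *Junb* (1.12), *Fos* (0.94) and the phosphatases *Dusp1* (0.90) and *Dusp6* (1.04) rose, while *Jun* (−0.21), *Fosb* (0.04), *Atf3* (0.19) and *Klf6* (−0.00) were not called. Of 28 targets and components of cytokine receptors 10 rose and 3 fell. *Socs3*, a feedback inhibitor of cytokine receptors, went from 16.1 and 16.2 to 91.2 and 90.2 CPM (2.49 ± 0.06), *Lif* from 51.5 and 53.3 to 192.2 and 181.6 CPM, and the receptor genes *Flt3* (1.71) and *Kit* (1.01), whose ligands were in the induction medium, rose too. *Cish* (0.29), *Pim1* (0.28) and *Bcl2l1* (0.28), targets of STAT5, were not called, and *Socs2* (−0.76), *Il2ra* (−0.78) and *Jak3* (−0.61) fell. Of 20 NF-κB genes 6 rose, *Tnip3* (3.95), *Traf1* (2.18), *Bcl3* (1.37), *Nfkbia* (0.96), *Nfkbiz* (0.69) and *Nfkbid* (0.64), and the subunits *Rela* (0.16), *Relb* (0.13) and *Nfkb1* (0.07) did not pass. Of 30 interferon-stimulated genes 13 rose and 2 fell. *Ifitm1* went from 7.63 and 6.89 to 71.2 and 72.1 CPM and *Oas3* from 2 and 4 counts to 33 and 41 counts, but *Irf1* (−0.19), *Ifit3* (0.23) and *Usp18* (0.29), which interferon also induces, were not called, and *Irf9* (−0.59) and *Gbp3* (−1.05) fell. Several members of these families (*Oas*, *Ifitm*, *Ccl*, *Clec4* and *Ms4a* genes) have close paralogs. Counts came from the gene counting of STAR, and the study's methods do not describe how it treated reads shared by paralogs. The feeder marker sum rose over the same hour, from 6815 to 6899 CPM at 0 hpi to 10706 to 10738 CPM at 1 hpi. The part of the feeder cells in the rises of immediate early, cytokine and signalling genes was not tested.

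Stress and survival genes were mixed. Of 30 heat shock and stress genes 7 rose and 2 fell. Those that rose were mostly targets of Nrf2, a transcription factor of the response to oxidants, with *Srxn1* (91.1 and 93.5 to 249.8 and 249.8 CPM), *Slc7a11* (1.41), *Hmox1* (0.88), *Gclm* (0.72) and *Txnrd1* (0.60), besides *Txnip* (0.88) and *Ddit4* (0.59). The chaperone *Hspa1a* (−0.86) and *Chac1* (−0.79) fell, and *Hspa8* (−0.47), *Hsp90ab1* (−0.42), *Atf4* (−0.39) and *Ddit3* (−0.10) were not called. None of 18 p53 targets was called in either direction by edgeR, with values between −0.40 for *Bbc3* and 0.37 for *Pmaip1*, 8 of them called higher and 5 lower when no fold threshold was set, and 0 by DESeq2 with the threshold. Of 13 genes of the Bcl2 family 5 rose. *Bcl2l2* and *Bmf* had 0.76 and 0.70, and *Bcl2a1a*, *Bcl2a1b* and *Bcl2a1d*, near-identical paralogs whose reads cannot be assigned with certainty, had at most 1 count in a 0 hpi library and 4 to 13 at 1 hpi. Of 11 estrogen-responsive genes 4 rose, *Greb1* (1.91 and 2.68 to 8.32 and 8.41 CPM), *Gper1*, *Esr1* and *Ccnd1* (0.70), and *Pgr* (−0.55) was not called.

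The levels at 1 hpi were not simply the first point of a steady rise. The summed level of the 9 macrophage markers was 74.8 CPM before induction and 897 CPM after 1 h, stood lower after 3 h (562 CPM) and 6 h (584 CPM), and reached 837 CPM after 18 h and 19880 CPM after 120 h. Most of the sum at 1 hpi was *Lyz2* (632 and 624 CPM), so the sum need not show the course of the other markers. *Clec4n* was at a mean of 86.2 CPM at 1 hpi and 57.3 CPM at 3 hpi, *Mmp12* at 292.6 and 207.3 CPM, *Cd300lf* at 26.5 and 18.8 CPM and *Ms4a6d* at 12.9 and 7.15 CPM, whereas *Mmp8* (78.7 and 86.5 CPM) was no lower at 3 hpi. The B cell marker sum went on from 4228 and 2027 CPM to 1884, 1508, 413 and 289 CPM at 3, 6, 18 and 120 hpi. *Pax5* stood at a mean of 261 CPM at 1 hpi, 255.2 CPM at 3 hpi and 224 CPM at 6 hpi, so that most of its fall over the first 6 h lay in the first hour, and *Cd22* went from 11.6 to 9.36 and 6.16 CPM. *Cebpa* (107, 96.6, 90.4 and 39.6 CPM at 1, 3, 6 and 18 hpi) and *Esr1* (151, 142.5, 125.2 and 27.8 CPM) came down together by 18 hpi. The feeder marker sum rose from 10720 CPM at 1 hpi to 17030 CPM at 18 hpi. The granulocyte sum was 2.52, 3.57 and 3.04 CPM at 1, 3 and 6 hpi and rose to 17.4 CPM at 18 hpi and 20.1 CPM at 120 hpi, below the 62.5 CPM of 0 hpi. Over the 1814 genes called higher at 1 hpi the median log2 fold change against 0 hpi was 1.06 after the first hour and then, in the order of the later timepoints, 1.02, 1.07, 1.23 and 1.03, and over the 1574 called lower it was −0.95, −1.04, −1.22, −2.04 and −1.74. These comparisons share the 0 hpi libraries and the genes were chosen at 1 hpi, so the medians are set side by side only. The time plot shows these courses.

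**Figure D4:**
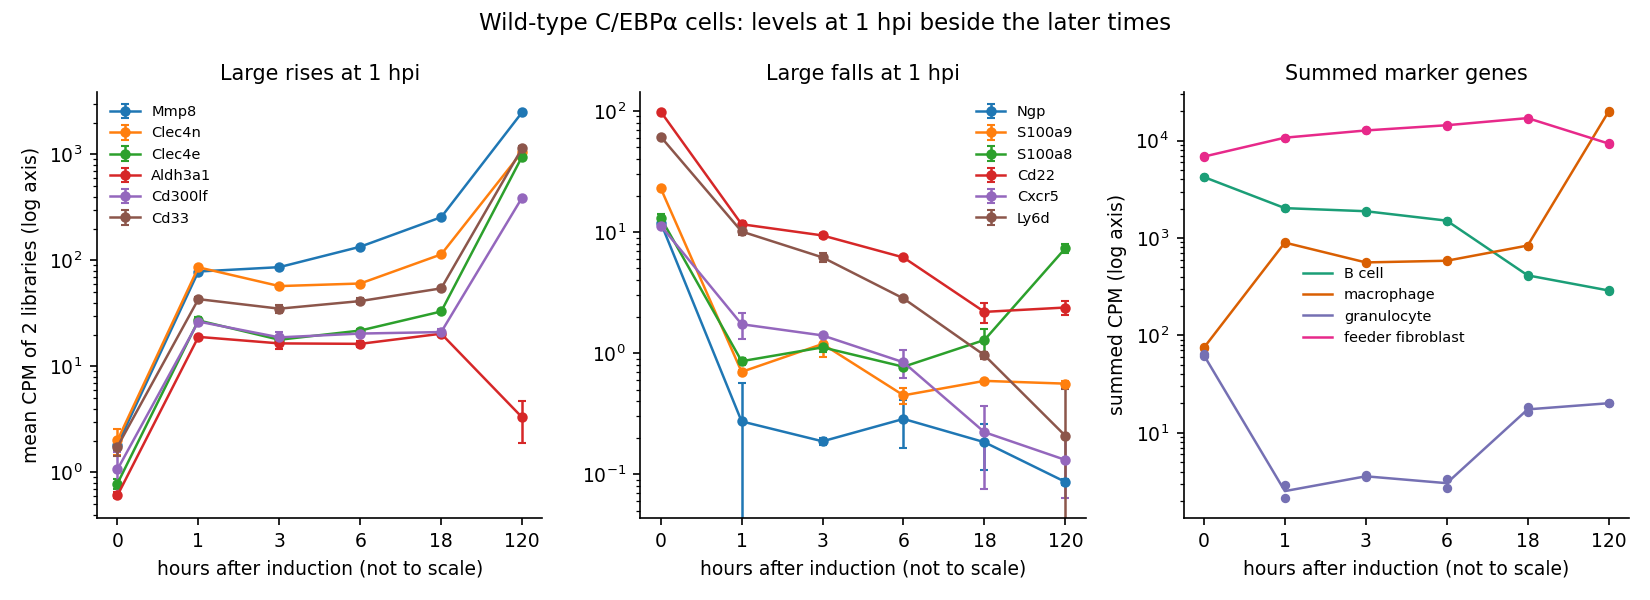
Levels in wild-type cells over the timepoints from 0 to 120 hpi (spaced evenly, not to scale), on log axes. The left and middle panels give the mean CPM of 2 libraries ± SD for 6 of the genes with the largest rise and 6 with the largest fall at 1 hpi (bars that reach 0 leave the axis). The right panel gives the summed CPM of marker genes with a point for the lower and the higher library. The macrophage sum is 897 CPM at 1 hpi, most of it *Lyz2*, and 562 CPM at 3 hpi.

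The wild-type change was set against that of the R35A and R35K cells to see which parts of it differed. Of the 1814 genes that rose in wild-type cells 1449 (79.9%) were also called higher in R35A cells, where 37.3% of tested genes were called and 3110 (18.3%) were higher, so they made up 46.6% of that list, and 1357 (74.8%) were also called higher in R35K cells, where 16.4% were. Of the 1574 genes that fell, 1322 (84.0%) were also called lower in R35A cells, where 18.9% were, and 1285 (81.6%) in R35K cells, where 15.4% were. The change itself differed from that of R35A cells at 2384 genes (14.0% of those tested), 1485 (8.74%) with a more positive and 899 (5.29%) with a more negative change in wild-type cells, and from that of R35K cells at 2059 genes (11.9%), 878 (5.08%) more positive and 1181 (6.84%) more negative. The split by direction depended on the processing. Against R35A it was 1319 and 1114 with DESeq2 size factors in edgeR, and against R35K it was 1030 and 978 with no filter on low counts. Among the genes that rose in wild-type cells the change was smaller than in R35A cells for 365 and larger for 114, and among those that fell it was smaller for 600 and larger for 53. Against R35K cells the rise was smaller for 442 and larger for 136 genes, and the fall smaller for 293 and larger for 83. The feeder marker sum at 1 hpi over that at 0 hpi was 1.54 in wild-type, 1.71 in R35A and 1.22 in R35K cells, and its part in these differences was not tested.

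A small set went in opposite directions. Of the 1814 genes that rose in wild-type cells 14 fell in R35A cells, where 18.9% of all tested genes were called lower. Of the 1574 that fell in wild-type cells 5 rose in R35A cells, where 18.3% were called higher. *Dnajc6* (auxilin), a co-chaperone that uncoats clathrin vesicles, went from 10.0 and 10.7 to 25.7 and 24.8 CPM in wild-type cells (log2 fold change 1.28 ± 0.10), against −1.40 in R35A and −1.02 in R35K cells. *Ipcef1* (1.62 in wild-type and −0.59 in R35A cells), *Satb1* (a chromatin organizer of lymphocytes, 0.91 and −0.60), *Ssh2* (a cofilin phosphatase, 0.67 and −0.81), *P2rx3* (0.77 and −1.81), *Clec2i* (1.39 and −0.77) and *Fndc9* (1.04 and −1.32) were others of the 14. The difference between wild-type and R35A cells was called at each of the 19 genes, which largely follows from choosing genes with opposite calls. The 5 that fell in wild-type and rose in R35A cells were *Csf3r* (−1.26, against 2.86 in R35A cells), *Slfn8* (−0.75 and 1.5), *Lcn2* (lipocalin-2, −0.84 and 0.90), *Cd40* (−0.73 and 0.87) and *Rnls* (−1.13 and 1.07). In R35K cells 13 of the 1814 genes were called lower, where 15.4% of all tested genes were. Of the 1574 genes 20 were called higher in R35K cells, where 16.4% were. *Esr1* differed between constructs that carry the same ER part, with 1.28 in wild-type, −0.26 in R35A and 0.29 in R35K cells. *Cebpa* had 1.36, 0.52 and 1.23, and *Spi1* 1.18, 1.57 and 2.31. The plot of changes by construct shows these genes with those at which the constructs differed most.

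**Figure D5:**
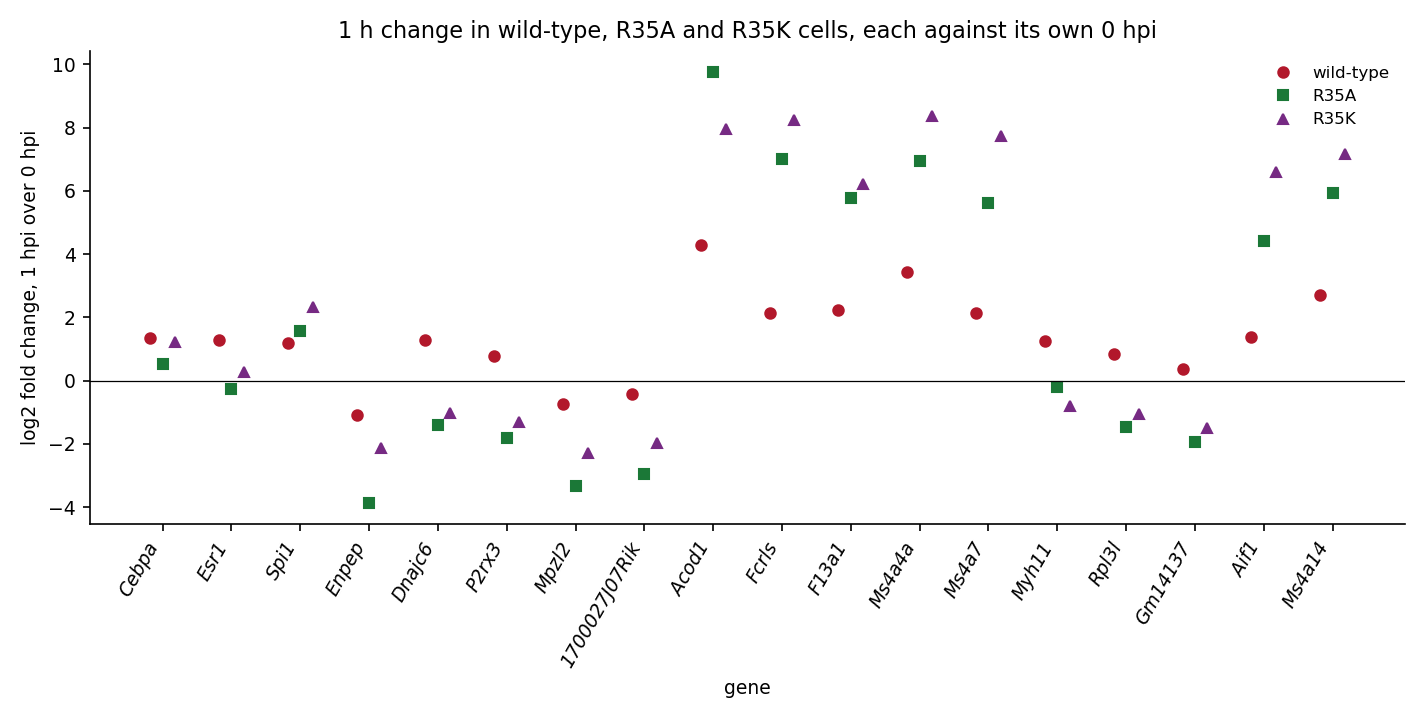
Log2 fold change at 1 hpi against the 0 hpi of the same construct in wild-type (circles), R35A (squares) and R35K cells (triangles), for *Cebpa*, *Esr1*, *Spi1* and the genes with the largest differences from R35A or R35K. *Dnajc6*, *P2rx3* and *Rpl3l* lie above 0 in wild-type and below 0 in both mutants, and *Fcrls*, *Ms4a7* and *Ms4a4a* lie far higher in both mutants.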

How the data were processed

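Poly(A) RNA was sequenced by the authors as stranded, single-end libraries, checked with FastQC and aligned to mm10 with STAR 2.5.0a, whose gene counting gave the raw counts per gene that the authors deposited in separate tables for wild-type with R35A and for R35K. The deposited log2 tables hold the authors' DESeq2 1.14.1 normalized counts on a log2 scale and were not used. The annotation release and the strand column counted are not given in the sources used here. All 24 wild-type and R35A libraries (12 groups of 2 biological replicates, per the study's methods) were fitted with edgeR 4.0.16 in R 4.3.3, with its expression filter, TMM factors and the quasi-likelihood test, which kept 16988 of 40354 genes. A gene was called at a fold of at least 1.5 either way with p adjusted by Benjamini and Hochberg's method at 0.05 or less, the fold threshold of the study, whose methods do not name an adjustment. R35K was compared in a fit of all 36 libraries (17277 genes), as a difference of changes, each against its own 0 hpi. SEs were derived from the F statistic. DESeq2 1.42.0 was an alternative. The fit was also run on counts simulated with its own estimate of the spread, which checks the code and not the calls made here.

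Total counts were 13473204 and 13044456 at 0 hpi and 14160103 and 16235204 at 1 hpi, and 3 counts in a library were taken as the detection floor, which covers counting error only.

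Genes were named by rule: the 12 largest changes each way among called genes with at least 10 CPM in the higher group and no overlap between groups; the 6 largest gains and losses in CPM; the 3 most changed called members each way of each list with at least 1 CPM; *Cebpa*, *Esr1* and *Spi1*; and the 5 largest differences each way from R35A and from R35K. Some genes that these rules select are not reported here. Other genes were named with their values known. The lists hold macrophage, B cell, cytokine, signalling, cell cycle, metabolic and housekeeping genes. The libraries were taken by their labels, and the comparison and the lists were chosen with earlier results of these data known. Gene models were from GENCODE vM21, which held 97.07% of the symbols, and promoters from RefSeq on GRCm38.p6.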

Additional observations from a re-analysis of the deposited data

Results flagged for a closer look

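These results were singled out because the change over the first hour differed between constructs by a test of the difference itself (edgeR quasi-likelihood test, Benjamini-Hochberg adjustment), with values given as the wild-type log2 change minus that of the mutant.

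Against R35A, the wild-type change was more positive at 1485 genes and more negative at 899, a split that moved to 1319 and 1114 with DESeq2 size factors. *Cebpa* differed by 0.83 and *Esr1* by 1.54. The largest positive differences were those of *Enpep* (2.76), *Dnajc6* (2.68), *P2rx3* (2.57), *Mpzl2* (2.57) and 1700027J07Rik (2.52), and the largest negative ones those of *Acod1* (−5.47), *Fcrls* (−4.87), *F13a1* (−3.55), *Ms4a4a* (−3.51) and *Ms4a7* (−3.48). *Acod1*, which makes itaconate in activated macrophages, had 2 counts in each wild-type library at 0 hpi and 39 and 53 at 1 hpi, so the size of its difference is not a measured fold.

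Against R35K, the wild-type change was more positive at 878 genes and more negative at 1181, but at 1030 and 978 with no filter on low counts. *Esr1* differed by 0.97 and *Spi1* by −1.15. The largest positive differences were those of *Dnajc6* (2.28), *P2rx3* (2.06), *Myh11* (2.04), *Rpl3l* (1.87) and *Gm14137* (1.85), and the largest negative ones those of *Fcrls* (−6.13), *Ms4a7* (−5.63), *Aif1* (−5.25), *Ms4a4a* (−4.95) and *Ms4a14* (−4.49). *Aif1* was not called in wild-type cells.

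*Ms4a4a* had 1 and 9 counts in the wild-type 0 hpi libraries. Without replicate 2 at 0 hpi its difference was no longer called against R35A (−1.29, adjusted p = 0.67) or R35K (−2.73, adjusted p = 0.37), nor was that of *Ms4a14* against R35K (−2.76, adjusted p = 0.36).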

How the results depend on the processing

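The total counts of called genes moved by more than 1.5 times only with the fold threshold, among the alternatives run, and no gene named by rule turned its direction. At 2-fold, 1708 genes were called in wild-type cells (973 higher, 735 lower), 1289 differed from R35A (873 more positive, 416 more negative) and 924 from R35K (273 and 651). With no fold threshold these were 8712 (4291 and 4421), 5778 (3317 and 2461) and 4974 (2460 and 2514). With DESeq2 the wild-type count was 2967, with the unadjusted p 3620, and without one library at a time 3124 to 3210. A fit of the 12 wild-type libraries alone called 3322 genes, 1670 higher and 1652 lower. The split of the differences by direction was less stable. Against R35A, 1485 more positive and 899 more negative became 1116 and 952 with DESeq2, 1319 and 1114 with its size factors in edgeR and 1274 and 997 without replicate 2 of R35A at 1 hpi. Against R35K, 878 and 1181 became 1030 and 978 with no low-count filter, which turned the majority. The cause was not tested. Without one library, differences from R35A numbered 2202 to 2293 and those from R35K 1910 to 2016. Of the genes named by rule, *Csf3r*, *Irf9*, *Mycn*, *Idi1*, *Hist1h1a*, *Il2ra*, *Mxi1*, *Rpl11*, *Psmb10*, *Hist1h3b* and *Mrpl12* lost their call without some single library.

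With the replicate number as a block 3375 genes were called in wild-type cells, 2363 differed from R35A and 2051 from R35K. Same-numbered libraries did not deviate together (correlation of replicate differences 0.0042 between 0 and 1 hpi, −0.20 to 0.13 over the 15 pairs of groups). At most genes these differences were close to counting noise, so the correlation cannot show whether the numbers pair the libraries.

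The shares of promoters with a motif were computed at both fold thresholds, but are not compared between sets, because too few called genes had a promoter entry. Depth limits the fold of 181 of the 1814 higher genes, which had at most 3 counts in each 0 hpi library, and of 48 of the 1574 lower genes at 1 hpi. With 2 libraries a group the spread is shared across groups.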

Other observations

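The genes that rose differed from those that fell in the kind and length of their genes, given here as a description with no test. Protein-coding genes were 91.7% of the 1788 higher genes with a gene model, 76.1% of the 1559 lower genes and 84.0% of all tested genes with a model. Of the 765 protein-coding genes spanning over 200 kb, 173 (22.6%) were called higher and 49 (6.41%) lower, with a median log2 fold change of 0.23. Of the 4631 spanning 5 to 20 kb, 10.3% were called higher and 8.66% lower, with a median of −0.03. Among the protein-coding genes that rose at least 4-fold 5.05% spanned over 200 kb, against 5.43% of all protein-coding genes tested.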
